A study of Homo sapiens with 40 samples.

Results

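The mRNAs described here encode 10 proteins that remove the 5′ cap, help its removal, degrade the decapped body or repress translation. Most of these proteins are found in processing bodies (P-bodies). The 10 genes are DCP2, DCP1A, DCP1B, EDC3, EDC4, PATL1, LSM14A, LSM14B, XRN1 and EIF4ENIF1. They were chosen by gene symbol for the function of their proteins, with earlier results of these data known. All 10 were found among the 55765 symbols counted and passed the filter on low counts in each of the 3 experiments. HEK293 cells, an established human embryonic kidney line, were the source of all 40 libraries. In the RNA immunoprecipitation experiment (RIP), untreated cells gave total RNA and RNA recovered with antibodies to the endogenous DEAD-box helicases eIF4A1, eIF4A2 or DDX6 (IP), with 3 libraries per group. In the gradient experiment, cells transfected with control siRNA or siRNA against CNOT1 gave input RNA, subpolysomal RNA from fractions 1 to 5 and polysomal RNA from fractions 6 to 11, 4 libraries each. For the TNRC6 experiment, total RNA was taken after control siRNA or siRNAs against both TNRC6A and TNRC6B, with 2 libraries per group. Each knockdown rests on a single siRNA sequence per gene, and libraries of RNA bound by a control antibody were not analysed here, so that binding to the beads or to any antibody was not tested.

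An mRNA is usually committed to 5′-to-3′ decay once its poly(A) tail has been shortened, a step carried out largely by the Ccr4-Not complex, whose scaffold is CNOT1. DCP2 then cuts the cap with the help of DCP1, EDC3, EDC4 and PATL1, and XRN1 digests the exposed body. DDX6 binds Ccr4-Not and, on shared surfaces, several of these proteins, and with LSM14 and 4E-T, the product of EIF4ENIF1, it represses translation and builds P-bodies. The TNRC6 proteins connect Argonaute and its miRNAs to Ccr4-Not. The comparisons below therefore concern the messages that encode DDX6's own partners, not the proteins.

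The study was concerned with purine-rich elements in 5′UTRs and with repression by Ccr4-Not, so matches to purine tetramers and to the Pumilio motif, read by RNA-binding proteins that recruit Ccr4-Not, are shown first. The tetramers were AAGA or AGAA or GAAA or GAGA or AGAG or GGAA or AAAA or GAAG, counted on the mRNA strand without overlap, and 6 of the 10 mRNAs held at least 1 within 50 nt upstream of the start codon, against 59.2% of 18937 coding mRNAs. The share among the 10 was thus close to that of all mRNAs. The sites nearest the start codon are printed for the 3 mRNAs with the highest ratios between the DDX6 IP and the eIF4A IPs, 5′ to 3′ with the tetramer in capitals. The first pair are the whole 5′UTRs, each 26 nt long, which is shorter than in all but 7.12% of the mRNAs.
DCP1A: AGAGgggctaggctctgggattcaag
DCP1B: gtgcctatgtctgggagggagGGAAg
PATL1: cctccccgctccctgcccccctccccAAGA
In GRCh37 these lie at chr3:53381545-53381570, chr12:2113598-2113623 and chr11:59436369-59436398, all on the minus strand.

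The Pumilio motif TGTANATA, where N is any base, was searched on the mRNA strand of the 3′UTR. It was found in 4 of the 10 mRNAs, against 25.8% of all, and at least 2 copies were found in 3 of them, against 9.29%. Of the 10, DCP2 and LSM14A had the largest ratios, in opposite directions, between polysomal and subpolysomal RNA of control cells. A link between the motif and this ratio was not tested. The windows of all 4 mRNAs are printed, with the motif in capitals.
DCP2, first: attccagttgTGTAAATAtgtatggaaa
DCP2, second: agctttttgaTGTAAATAataggttaga
LSM14A, first: agtatacaaaTGTAAATAatcacagatg
LSM14A, second: gaaagaaaacTGTAAATActagttctac
PATL1: tatagggtatTGTAAATAaaaacaaatt
EIF4ENIF1, first: aaacaactttTGTATATAcatataggat
EIF4ENIF1, second: actatacagcTGTACATAaaagtagctg
The DCP2 windows lie at chr5:112350011-112350038 and chr5:112356490-112356517 on the plus strand, within a 3′UTR of 8711 nt that was longer than that of 98.5% of mRNAs. Those of LSM14A lie at chr19:34719239-34719266 and chr19:34720001-34720028 on the plus strand. The PATL1 window lies at chr11:59404202-59404229 on the minus strand. Those of EIF4ENIF1 lie at chr22:31835494-31835521 and chr22:31835455-31835482, also on the minus strand. A match describes the sequence and is no evidence that a factor binds there.

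The genes are spread over the genome. In GRCh37, DCP2 lies at chr5:112312399-112357892, EDC4 at chr16:67906955-67918402, LSM14A at chr19:34663409-34720193 and LSM14B at chr20:60697517-60710430, all on the plus strand. DCP1A lies at chr3:53317449-53381613, DCP1B at chr12:2055219-2113701, EDC3 at chr15:74922899-74988633, PATL1 at chr11:59404189-59436510, XRN1 at chr3:142025449-142166904 and EIF4ENIF1 at chr22:31832963-31892094, all on the minus strand.

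Library totals ran from 15.4 to 46 M counts (M, mega), and DCP1B was the scarcest of the 10 mRNAs. HEK293 markers were present in all 40 libraries, NEFM at 222 to 5647 CPM (counts scaled to a common library total) and LIN28B at 139 to 273 CPM, whereas PTPRC, CD3E, ALB, MLANA and INS, markers of other cell types, did not exceed 0.403 CPM. The kidney gene PAX2 was at 0.111 to 1.59 CPM. CNOT1 fell from 628 to 711 CPM in control input to 36.8 to 41.4 CPM after CNOT1 siRNA. The polysomal libraries of replicate 3 went against their labels. The library labelled control siRNA held 28.3 CPM of CNOT1, where the other 3 control polysomal libraries held 470 to 501, and the library labelled CNOT1 siRNA held 631 CPM, where the other 3 held 24 to 31.6. Results of the gradient experiment are therefore given with all libraries and, for calls and counts, also without these 2. TNRC6A was at 178 and 189 CPM in control cells and at 40.5 and 64.7 CPM after TNRC6A/B siRNA, and TNRC6B at 67.6 and 73.1 against 17.7 and 26.3 CPM. These are bulk measurements, in which fewer cells with an mRNA and less of it per cell cannot be told apart, and a level in an IP is a share of the recovered RNA, not an amount.

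To ask which of these messages DDX6 retains, the DDX6 IP was compared with total RNA. Messages of DCP1A and PATL1 were 2.76- and 2.63-fold higher in the DDX6 IP, and those of DCP1B, DCP2, LSM14B, LSM14A and EDC3 were 1.54- to 1.87-fold higher. XRN1 and EDC4 messages were lower, and EIF4ENIF1 did not pass the test. Thus 7 of 10 were called higher and 2 lower at an FDR below 0.05 (edgeR), where 22.7% and 23.3% of all 17474 genes tested were called higher and lower. The median log2 fold change of the 10 was 0.67, against 0.01 for all genes. The study had already reported from this RIP experiment that DDX6 associated with mRNAs for P-body components, so the count is no independent support.

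DCP2 is the catalytic subunit of the decapping enzyme. Its message was at 165, 178 and 198 CPM in the 3 total RNA libraries and at 299, 275 and 333 CPM in the DDX6 IP. The groups did not overlap, and the log2 fold change was 0.74 ± 0.14 (SE, adjusted p = 0.00096, edgeR). DCP1A and DCP1B are paralogous cofactors that bind DCP2. DCP1A was at 92.4, 102 and 100 CPM in total RNA and at 373, 183 and 258 CPM in the DDX6 IP. Every DDX6 IP library lay above every total library, although the DDX6 IP libraries differed widely among themselves. The log2 fold change of DCP1A was 1.46 ± 0.22 (adjusted p = 0.000161), above that of 97.9% of the genes tested. DCP1B, the scarcer paralogue, was at 19.7, 19.7 and 15.5 CPM in total RNA and at 49.4, 26.1 and 27.3 CPM in the DDX6 IP. Here too the first DDX6 IP library stood highest and no libraries overlapped, with a log2 fold change of 0.90 ± 0.23 (adjusted p = 0.00606).

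**Figure D1:**
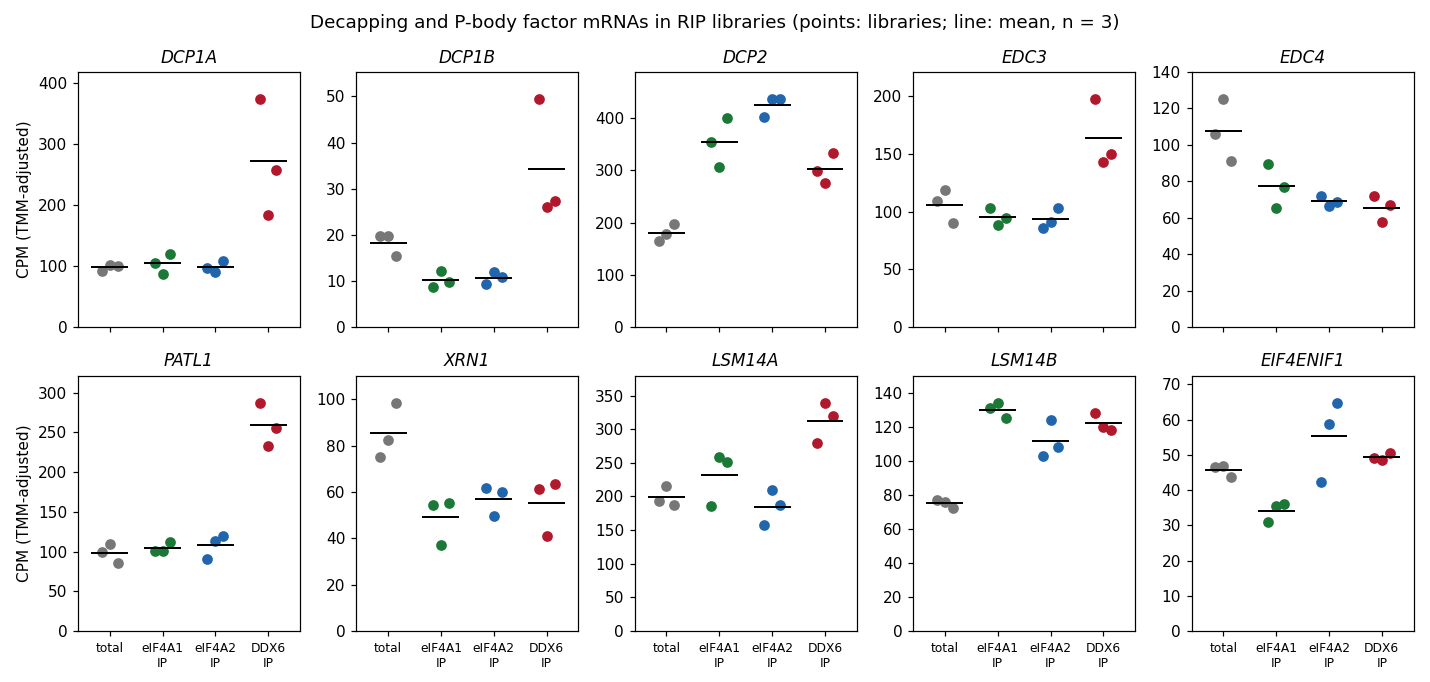
Levels of the 10 mRNAs in the RIP experiment, in CPM with TMM-adjusted library totals, on axes that start at 0. Each point is a library and each line the mean of 3. DCP1A, DCP1B, PATL1 and EDC3 stand out in the DDX6 IP, DCP2 is highest in the eIF4A2 IP, and XRN1 and EDC4 are lower in every IP than in total RNA.

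Among the activators, PATL1, which bridges DDX6 and the LSM1-7 ring, was at 100, 110 and 85.5 CPM in total RNA and at 287, 233 and 256 CPM in the DDX6 IP. The DDX6 IP libraries agreed within a narrower range than for DCP1A, and the log2 fold change was 1.39 ± 0.15 (adjusted p = 2.11e-05). EDC3, a scaffold that binds both DCP2 and DDX6, rose from 109, 119 and 89.8 CPM to 197, 143 and 150 CPM, a log2 fold change of 0.62 ± 0.16 (adjusted p = 0.0058). EDC4, the large scaffold that joins DCP1 to DCP2, went the other way. It was at 106, 125 and 91.1 CPM in total RNA and at 72.1, 57.7 and 66.9 CPM in the DDX6 IP, without overlap, and its log2 fold change was -0.71 ± 0.16 (adjusted p = 0.00229). Of the exonic positions of EDC4, 21.3% are shared with a lncRNA annotated on the same strand and, of those of EDC3, 13.8% with CLK3 on the other strand. How the authors' counting treated such reads is not given in the sources used here, so the counts of both genes are uncertain to that extent, as are those of EIF4ENIF1, which shares 7.72% with a lncRNA on the other strand.

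The paralogues LSM14A and LSM14B bind DDX6 in repressed complexes. LSM14A was at 194, 216 and 188 CPM in total RNA and at 279, 339 and 319 CPM in the DDX6 IP, and LSM14B was at 77, 76.1 and 72.2 against 128, 120 and 118 CPM. Both messages were higher in each DDX6 IP library than in any total library, with log2 fold changes of 0.65 ± 0.16 and 0.70 ± 0.12 (adjusted p = 0.00525 and 0.000387). EIF4ENIF1 encodes 4E-T, which binds eIF4E, DDX6 and LSM14. It was at 46.6, 46.7 and 43.6 CPM in total RNA and at 49, 48.5 and 50.4 CPM in the DDX6 IP. These values did not overlap, but the log2 fold change of 0.11 ± 0.15 did not pass the test (adjusted p = 0.558). XRN1, the 5′-to-3′ exonuclease, was at 75.2, 82.3 and 98.4 CPM in total RNA and at 61.4, 41.2 and 63.3 CPM in the DDX6 IP. XRN1 was lower in each DDX6 IP library, with a log2 fold change of -0.63 ± 0.20 (adjusted p = 0.0191). That call was lost without the third total RNA library (-0.51, adjusted p = 0.0779) or without the second DDX6 IP library (-0.45, adjusted p = 0.0874), and over 11 alternatives the adjusted p ran from 0.000689 to 0.0874. All other calls in this comparison held under the same 11 alternatives. In all, 8 of the 10 mRNAs lay higher and 2 lower without overlap of libraries, as did 29.3% and 29% of all genes.

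The eIF4A1 and eIF4A2 IPs were compared with the same total RNA libraries as the DDX6 IP, so the 3 comparisons share their controls and their values are set side by side. With eIF4A1, 2 of the mRNAs were called higher and 4 lower (all genes, 26.1% and 26.5%), and with eIF4A2, 2 were called higher and 3 lower (24.5% and 25.8%). DCP2 and LSM14B were the messages called higher in both. DCP2 reached 355, 307 and 401 CPM in the eIF4A1 IP and 403, 436 and 436 CPM in the eIF4A2 IP. All of these exceeded the total RNA libraries, with log2 fold changes of 0.97 (adjusted p = 9.57e-05) and 1.23 (adjusted p = 1.5e-05). LSM14B was at 131, 134 and 125 CPM in the eIF4A1 IP and at 103, 124 and 108 CPM in the eIF4A2 IP. Again no library overlapped with total RNA, and the log2 fold changes were 0.79 (adjusted p = 0.000102) and 0.57 (adjusted p = 0.00112).

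DCP1B moved in opposite directions in the IPs. It was at 8.66, 12.3 and 9.72 CPM with eIF4A1 and at 9.43, 11.9 and 10.8 CPM with eIF4A2, below every total RNA library, whereas the DDX6 IP libraries lay above them. The log2 fold changes against total RNA were -0.84 (adjusted p = 0.00841) and -0.77 (adjusted p = 0.0135), the latter lost without the first eIF4A2 IP library (-0.69, adjusted p = 0.0535; range over 11 alternatives, 0.000397 to 0.0535). EDC4 was called lower in all 3 IPs, at 89.5, 65.5 and 76.8 CPM with eIF4A1 and at 72, 66.4 and 68.6 CPM with eIF4A2. With eIF4A1 the change of EDC4 was -0.48 (adjusted p = 0.0197), and the call was lost without the second total RNA library (-0.35, adjusted p = 0.102) or the second eIF4A1 IP library (-0.38, adjusted p = 0.0745) and with no filter on low counts (-0.44, adjusted p = 0.0574), the adjusted p running from 0.0057 to 0.102. With eIF4A2 it was -0.64 (adjusted p = 0.00378).

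XRN1 was likewise lower in each IP, at 54.4, 37.3 and 55.3 CPM with eIF4A1 and at 61.8, 49.6 and 59.8 CPM with eIF4A2. The log2 fold changes were -0.80 (adjusted p = 0.00414) and -0.58 (adjusted p = 0.025), and the second of these calls was lost without the third total RNA library (-0.47, adjusted p = 0.0943) or the second eIF4A2 IP library (-0.49, adjusted p = 0.0937; range, 0.00129 to 0.0943). EIF4ENIF1 was at 30.8, 35.5 and 36.1 CPM in the eIF4A1 IP, all under total RNA, and at 42.4, 58.8 and 64.7 CPM in the eIF4A2 IP, which overlapped with it. The log2 fold change was -0.42 with eIF4A1 (adjusted p = 0.0305) and 0.28 with eIF4A2 (adjusted p = 0.134). The eIF4A1 call was lost without the first or second total RNA library (-0.40 and adjusted p = 0.0799 in each case) or the first eIF4A1 IP library (-0.34, adjusted p = 0.109) and with no filter on low counts (-0.38, adjusted p = 0.116), within a range of 0.00787 to 0.116. Without the first eIF4A2 IP library EIF4ENIF1 was called higher in the eIF4A2 IP (0.44, adjusted p = 0.017; range, 0.017 to 0.433).

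DCP1A, PATL1, EDC3 and LSM14A did not pass the test in either eIF4A IP. DCP1A was at 106, 87.7 and 120 CPM with eIF4A1 and at 97.2, 89.7 and 109 CPM with eIF4A2, and PATL1 was at 101, 101 and 112 and at 91.2, 113 and 120 CPM. These ranges enclosed or overlapped those of total RNA, and the 4 log2 fold changes of this pair lay between 0.00 and 0.13. EDC3 was at 103, 88.4 and 94.1 and at 85.9, 90.9 and 103 CPM, and LSM14A at 186, 259 and 251 and at 158, 210 and 187 CPM.

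**Figure D2:**
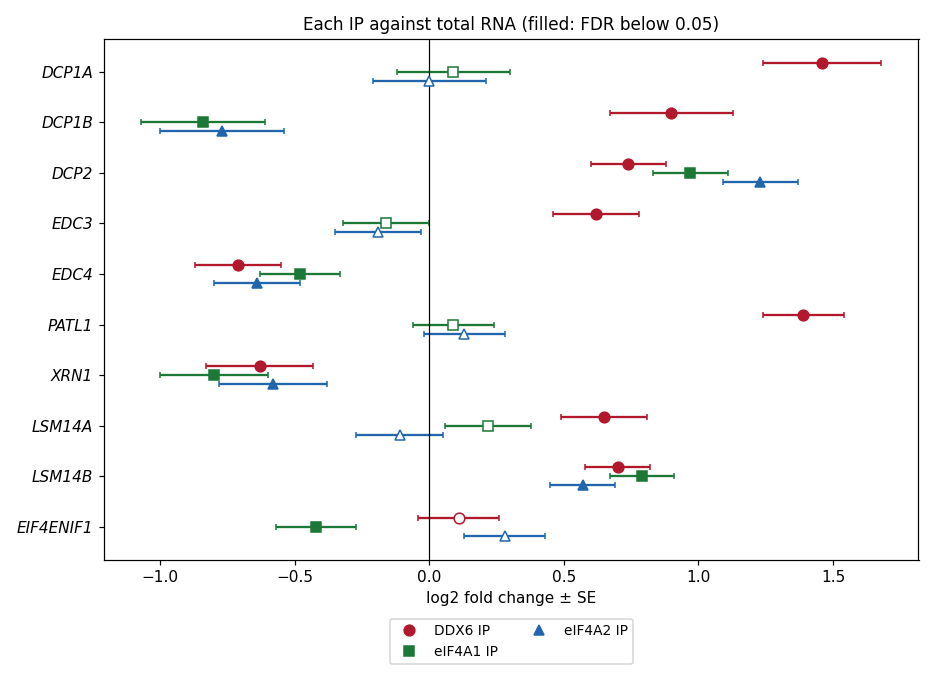
Log2 fold change of each IP against total RNA, with the SE, for each of the 10 mRNAs. Filled symbols passed an FDR of 0.05. DCP1A and PATL1 lie near 1.4 with DDX6 and near 0 with both eIF4A paralogues, DCP1B changes sign between DDX6 and the eIF4As, and EDC4 and XRN1 lie below 0 throughout.

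The helicases were next compared directly. Against the eIF4A2 IP, the DDX6 IP held more DCP1B, DCP1A, PATL1, EDC3 and LSM14A and less DCP2, so that 5 of the 10 mRNAs were called higher and 1 lower, where 11.3% and 9.82% of all genes were. The log2 differences were 1.68 for DCP1B (adjusted p = 0.002), 1.46 for DCP1A (adjusted p = 0.00223), 1.26 for PATL1 (adjusted p = 0.00133), 0.81 for EDC3 (adjusted p = 0.00511) and 0.75 for LSM14A (adjusted p = 0.00733). In each of these the lowest DDX6 IP library was above the highest eIF4A2 IP library, as for 20.5% of all genes, and the calls held under all 11 alternatives. DCP2 was 0.49 lower on the log2 scale in the DDX6 IP, written as -0.49 (adjusted p = 0.0276), also without overlap, as for 19.3% of all genes in this direction. That call was lost when any library but the third DDX6 IP library was left out, with values of -0.53 and -0.47 without the first and the second eIF4A2 IP library, -0.47 without the third, and -0.48 and -0.42 without the first and second DDX6 IP library, and with no filter on low counts (-0.46, adjusted p = 0.11; adjusted p over 11 alternatives, 0.0029 to 0.111).

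Against the eIF4A1 IP, DCP1B, DCP1A and PATL1 were called higher in the DDX6 IP, by 1.74 ± 0.24, 1.37 ± 0.22 and 1.31 ± 0.15 on the log2 scale (adjusted p = 0.0127, 0.027 and 0.0108). These 3 of 10 compare with 0.0801% of all genes called higher, and 0 of 10 with 0.0114% called lower. With same-numbered libraries as blocks, a pairing that the data bore out, 6 of 10 were called higher, where 6.08% of all genes were. DCP1B, DCP1A and PATL1 stayed called (edgeR with the block, adjusted p = 0.00298, 0.00357 and 0.00199). EDC3 (0.77, adjusted p = 0.00958), LSM14A (0.43, adjusted p = 0.0253) and EIF4ENIF1 (0.54, adjusted p = 0.0204) were added, within ranges over 11 alternatives of 0.000413 to 0.476, 0.0253 to 0.844 and 0.0204 to 0.731. With a fit of the 6 compared libraries alone, 0 genes of any kind were called. The calls also depended on single libraries, in fits that did not include the block. Without the first eIF4A1 IP library none of the 3 was called (DCP1A 1.38, adjusted p = 0.192; DCP1B 1.63, adjusted p = 0.137; PATL1 1.28, adjusted p = 0.0919). Without the third eIF4A1 IP library DCP1A (1.49, adjusted p = 0.0577) and DCP1B (1.71, adjusted p = 0.0577) were not called. DCP1A was not called without the second eIF4A1 IP library (1.28, adjusted p = 0.0932) or without the first or the third DDX6 IP library (1.08 and 1.41, adjusted p = 0.0982 and 0.102). Over the 11 alternatives the adjusted p ran from 3.84e-09 to 0.367 for DCP1A, from 2.54e-15 to 0.254 for DCP1B and from 1.41e-14 to 0.178 for PATL1.

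**Figure D3:**
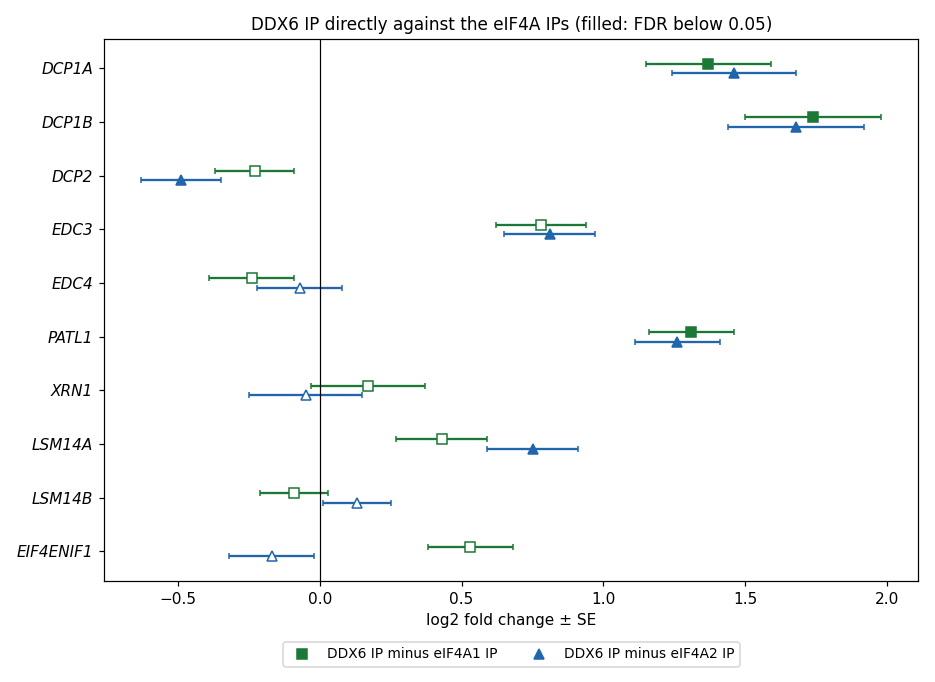
Log2 difference between the DDX6 IP and each eIF4A IP, with the SE, for each of the 10 mRNAs. Filled symbols passed an FDR of 0.05. DCP1B, DCP1A and PATL1 lie between 1.26 and 1.74 in both comparisons, and DCP2 lies below 0.

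Between the eIF4A paralogues, EIF4ENIF1 was the only one of the 10 called, higher in the eIF4A2 IP by 0.70 ± 0.15 on the log2 scale (adjusted p = 0.0437), where 0.973% of all genes were called higher and 0.0858% lower. The eIF4A1 IP libraries did not exceed 36.1 CPM and those of eIF4A2 did not fall under 42.4 CPM. Among the fits that left out 1 library, the call held only without the first eIF4A2 IP library and was lost without any other: without the first, second or the third eIF4A1 IP library the values were 0.62, 0.73 and 0.73, and without the second or the third eIF4A2 IP library 0.65 and 0.57. It was also lost with the compared libraries alone (0.70, adjusted p = 0.223; adjusted p over 11 alternatives, 0.00122 to 0.223). DCP2 differed by 0.26 and LSM14A by -0.33 between the paralogues, with adjusted p of 0.349 and 0.3.

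Divided by the length of its annotated exons, LSM14A was the most abundant of the 10 in total RNA, at 44.1 ± 3.26 CPM per kb (SD, n = 3), and DCP1B the least, at 3.97 ± 0.526. Between them, PATL1, LSM14B, EDC3, EDC4, DCP1A and DCP2, from 22.7 to 15.9 CPM per kb, formed an order in which each library range overlapped with the next. EIF4ENIF1 (7.48) and XRN1 (7.12) followed and overlapped with each other, and DCP1B lay under both. In the DDX6 IP the order of mean levels per kb changed to LSM14A (69.1), PATL1 (59.7), DCP1A (44.4), LSM14B (36.1), EDC3 (32.1) and DCP2 (26.6), with EDC4 (10.7), EIF4ENIF1 (8.08), DCP1B (7.43) and XRN1 (4.62) at the end. There the libraries of PATL1, DCP1A, LSM14B, EDC3, DCP2 and DCP1B each overlapped with those of the gene before. LSM14A had the highest mean per kb in every group of the series except after TNRC6A/B siRNA, where PATL1 was at 38.3 and LSM14A at 35.7 CPM per kb with overlapping libraries. LSM14A also overlapped with the next gene in the DDX6 and eIF4A2 IPs, in both polysomal groups and in the control group of the TNRC6 experiment.

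To place these mRNAs on the translation gradient, polysomal and subpolysomal RNA were compared. After control siRNA, 5 of the 10 mRNAs were called higher in polysomes and 1 lower, where 34.8% and 37% of the 16776 genes tested were. Without both polysomal libraries of replicate 3 it was 5 and 3, where 33.7% and 38.4% of all genes were. DCP2, EDC3, EDC4, PATL1 and XRN1 were on the polysomal side and LSM14A on the subpolysomal side either way.

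DCP2 was at 111, 102, 101 and 77.6 CPM in control subpolysomal RNA and at 215, 224, 119 and 203 CPM in control polysomal RNA. The third polysomal value is from the library that went against its label, and the other 3 were close to one another. The log2 ratio was 0.96 with all libraries (adjusted p = 9.96e-05) and 1.14 without both libraries (adjusted p = 2.1e-09). LSM14A showed the reverse, at 356, 460, 281 and 315 CPM in subpolysomal and 163, 194, 163 and 174 CPM in polysomal RNA. No library overlapped, and the log2 ratio of -1.02 (adjusted p = 4.58e-07) was nearly the same without both libraries, at -0.98 (adjusted p = 3.3e-06). Its paralogue LSM14B was at 47.4, 43.4, 52.9 and 49.8 CPM in subpolysomal and 57.3, 54.6, 64.9 and 45.8 CPM in polysomal RNA, a ratio of 0.20 that did not pass the test (adjusted p = 0.115). It was called without the fourth control polysomal library (0.30, adjusted p = 0.0267; range over 15 alternatives, 0.0267 to 0.47).

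EDC3, EDC4 and PATL1 were called higher in polysomes. EDC3 was at 99.4 to 111 CPM in subpolysomal and 143 to 166 CPM in polysomal RNA (0.54, adjusted p = 9.87e-06), and PATL1 at 106 to 114 and 123 to 157 CPM (0.38, adjusted p = 0.000328). Neither overlapped, and with both replicate 3 polysomal libraries left out the ratios were 0.52 (adjusted p = 3.38e-06) and 0.34 (adjusted p = 0.000497). EDC4 was at 32, 31.5, 49 and 43.3 CPM in subpolysomal and 65.4, 56.2, 82.3 and 39.1 CPM in polysomal RNA, where the fourth polysomal library lay inside the subpolysomal range, and its ratio was 0.64 (adjusted p = 0.00377), 0.48 without both polysomal libraries of replicate 3 (adjusted p = 0.0178), and 0.55 with the compared libraries alone (adjusted p = 0.0503; range over 15 alternatives, 5.88e-05 to 0.0503). XRN1 was at 43.1, 40.1, 37.7 and 30.9 against 42.8, 43.4, 92.9 and 49.4 CPM, and the highest of these was the polysomal library labelled replicate 3. With it the ratio of XRN1 was 0.59 (adjusted p = 0.00512), without that library it was 0.26 (adjusted p = 0.0609), and without both polysomal libraries of replicate 3 it was 0.26 (adjusted p = 0.0445). With the compared libraries alone it was 0.50 and not called (adjusted p = 0.0698; range over 15 alternatives, 0.000154 to 0.0698).

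DCP1A was at 108, 94, 93.7 and 87.8 CPM in subpolysomal and 73.9, 79.5, 125 and 82.1 CPM in polysomal RNA of control cells, and EIF4ENIF1 at 47.2, 50.5, 37.8 and 43 and at 32.5, 38.6, 53.1 and 33.3 CPM. In both, replicate 3 was the highest polysomal library by far and the others lay mostly under the subpolysomal values. With all libraries neither passed the test (-0.09 and -0.18, adjusted p = 0.528 and 0.282). Without the third control polysomal library both were called lower in polysomes (DCP1A -0.27, adjusted p = 0.00931; EIF4ENIF1 -0.35, adjusted p = 0.0283), as they were without both polysomal libraries of replicate 3 (adjusted p = 0.00393 and 0.0196). Over 15 alternatives the adjusted p ran from 0.00291 to 0.952 for DCP1A and from 0.000514 to 0.626 for EIF4ENIF1. DCP1B, at 17 to 20.7 CPM in subpolysomal and 15.5 to 23.8 CPM in polysomal RNA, did not pass the test with all libraries (-0.07, adjusted p = 0.653) or without both polysomal libraries of replicate 3 (-0.21, adjusted p = 0.0965), and was called lower only where the replicate block was fitted as well (-0.24, adjusted p = 0.021; range over 15 alternatives, 0.021 to 1).

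**Figure D4:**
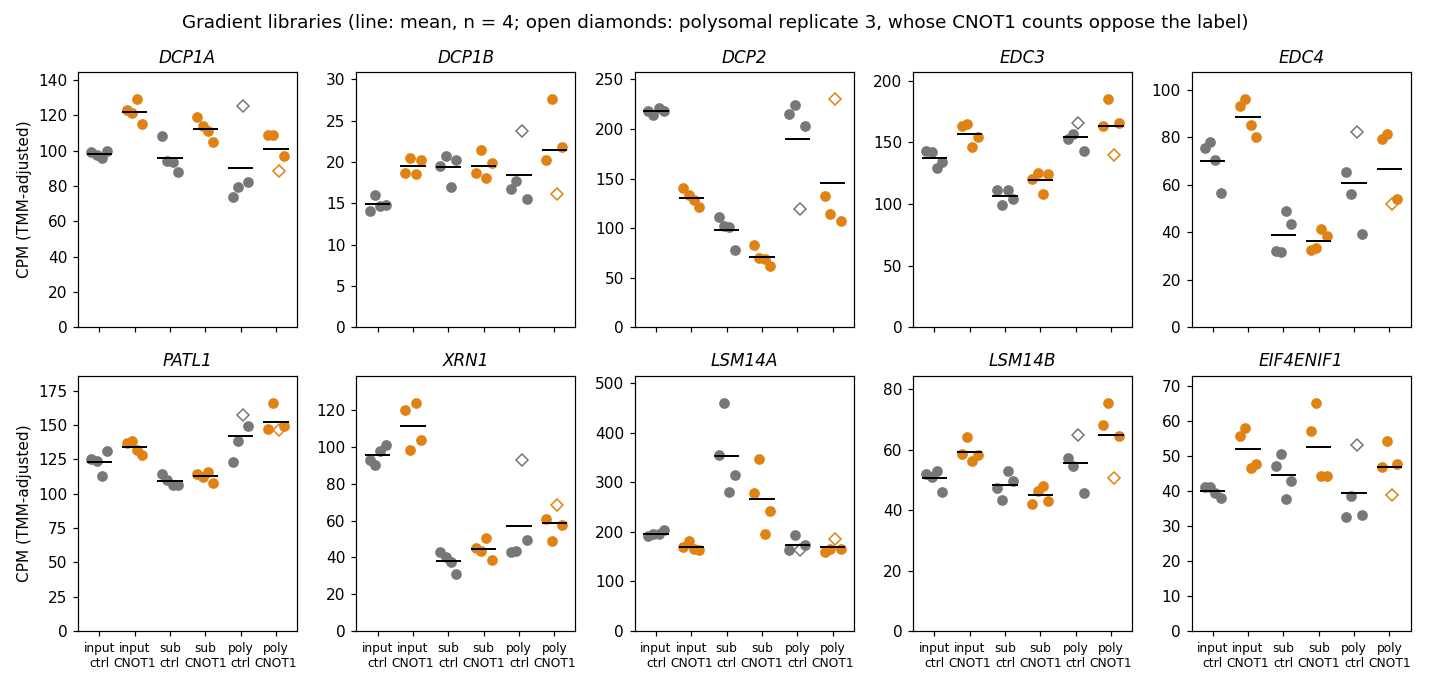
Levels of the 10 mRNAs in input, subpolysomal (sub) and polysomal (poly) RNA after control (grey) or CNOT1 siRNA (orange), in CPM on axes that start at 0. Each symbol is a library, each line the mean of 4, and open diamonds mark the polysomal libraries of replicate 3. DCP2 falls in input from 214 CPM or more to 141 CPM or less, and in DCP2 the open diamonds lie with the opposite siRNA group.

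After CNOT1 siRNA, 6 of the 10 were called higher and 1 lower in polysomes (all genes, 34.1% and 34.7%), and 7 and 1 without both polysomal libraries of replicate 3 (36% and 35.9%). DCP2 (1.04, adjusted p = 4.34e-05), EDC4 (0.87, adjusted p = 0.00025), LSM14B (0.53, adjusted p = 0.000251), EDC3 (0.46, adjusted p = 9.03e-05) and PATL1 (0.44, adjusted p = 7.65e-05) were higher in polysomes, and LSM14A was lower (-0.65, adjusted p = 0.000206). Without both polysomal libraries of replicate 3 the same 6 were called, DCP2 at 0.74 (adjusted p = 1.94e-06), EDC4 at 0.99 (adjusted p = 2.44e-05), LSM14B at 0.64 (adjusted p = 1.86e-06), EDC3 at 0.54 (adjusted p = 2.04e-06), PATL1 at 0.47 (adjusted p = 1.23e-05) and LSM14A at -0.69 (adjusted p = 0.000255). XRN1 was called at 0.41 with all libraries (adjusted p = 0.0456) and at 0.34 without both (adjusted p = 0.0106). Its call was lost without the first, second or the fourth CNOT1 siRNA subpolysomal library (0.42, 0.40 and 0.35) or the first, the third or the fourth polysomal library (0.40, 0.34 and 0.43), with DESeq2 (0.39, adjusted p = 0.0566) and with RLE factors (0.38, adjusted p = 0.0549), the adjusted p over 15 alternatives running from 0.00404 to 0.116. DCP1B was added when both polysomal libraries of replicate 3 were left out (0.26, adjusted p = 0.0368; range, 0.0248 to 0.998).

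Whether loss of the Ccr4-Not scaffold changes these messages was examined first in input RNA. DCP2 was at 218, 214, 221 and 218 CPM after control siRNA and at 141, 133, 128 and 121 CPM after CNOT1 siRNA. The groups were far apart relative to their spread, and DCP2 fell by 0.74 on the log2 scale (adjusted p = 0.00975). Its call held under all 15 alternatives (adjusted p, 3.26e-08 to 0.0286). DCP1B rose from 14.1, 16, 14.7 and 14.8 CPM to 18.7, 20.5, 18.6 and 20.3 CPM, a log2 fold change of 0.39 (adjusted p = 0.0402). The libraries of DCP1B did not overlap, but the call was lost when any of the 8 input libraries was left out. The changes were then 0.36 to 0.42, with adjusted p of 0.0578 to 0.0957. It was also lost with no filter on low counts (0.36, adjusted p = 0.139). Without both polysomal libraries of replicate 3, which were part of each of those fits, DCP1B was called (0.39, adjusted p = 0.00382). Over 15 alternatives the adjusted p ran from 0.00018 to 0.139.

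With all 24 gradient libraries in the fit, 1 of 10 was called higher and 1 lower in input, where 13.4% and 15.6% of all genes were. Without both polysomal libraries of replicate 3 it was 5 higher and 1 lower (19.6% and 21.1%), and with the 8 input libraries alone 8 higher and 2 lower (30.9% and 30%), which is all of them. The fold changes barely moved between these fits. The share of all genes called rose as well, but less steeply than the count called higher among the 10. DCP1A was at 99.1, 97.5, 95.6 and 100 CPM in control input and at 123, 121, 129 and 115 CPM after CNOT1 siRNA, without overlap. Its log2 fold change was 0.32 with all libraries (adjusted p = 0.0525) and 0.31 without both (adjusted p = 0.00162). EIF4ENIF1 was at 41.3, 41.2, 39.4 and 38 against 55.8, 58, 46.7 and 47.7 CPM, 0.38 with all libraries (adjusted p = 0.057), 0.37 with the replicate block (adjusted p = 0.046) and 0.38 without both (adjusted p = 0.0132). Over 15 alternatives the adjusted p ran from 5.22e-05 to 0.158 for DCP1A and from 0.000147 to 0.148 for EIF4ENIF1.

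LSM14B, EDC3 and EDC4 also lay higher in every CNOT1 siRNA input library than in any control, at 56.4 to 64.3 against 46 to 53.1 CPM, 146 to 165 against 129 to 143 CPM and 80.3 to 96 against 56.7 to 77.9 CPM. LSM14A lay lower, at 164 to 181 against 191 to 203 CPM. PATL1 and XRN1 overlapped between the groups, at 113 to 131 and 128 to 138 CPM, and at 90.4 to 101 and 98.6 to 124 CPM. In all, 6 of the 10 mRNAs lay higher and 2 lower without overlap, as did 24.9% and 25.7% of all genes.

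In subpolysomal RNA LSM14A was the only one of the 10 called after CNOT1 siRNA, where 13% of all genes were called higher and 19.1% lower. It was at 356, 460, 281 and 315 CPM with control siRNA and at 279, 346, 196 and 242 CPM with CNOT1 siRNA. These groups overlapped, although each same-numbered library was lower after CNOT1 siRNA. The log2 fold change was -0.41 (adjusted p = 0.0257), and -0.41 with the replicate block (adjusted p = 0.012). The call was lost without the first or second control library (-0.40 and -0.25, adjusted p = 0.0518 and 0.144) or the third or the fourth CNOT1 siRNA library (-0.29 and -0.36, adjusted p = 0.114 and 0.0729), with no filter on low counts (-0.36, adjusted p = 0.0556) and with the compared libraries alone (-0.37, adjusted p = 0.143), within a range of 0.00313 to 0.144. DCP2 was at 82.9, 70.2, 69.1 and 61.4 CPM after CNOT1 siRNA, and its change of -0.47 missed the threshold (adjusted p = 0.0647). It was called without the fourth control subpolysomal library (-0.56, adjusted p = 0.0404), with no filter (-0.43, adjusted p = 0.033), with the compared libraries alone (-0.44, adjusted p = 0.0305) and without both polysomal libraries of replicate 3 (-0.46, adjusted p = 0.000828), with a range over 15 alternatives of 6.14e-05 to 0.161. Without both libraries DCP1A, at 119, 114, 111 and 105 CPM after CNOT1 siRNA, was called as well (0.23, adjusted p = 0.0153; range, 0.00862 to 0.297), so that 1 of 10 was called higher and 2 lower, where 17.7% and 24.3% of all genes were.

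In polysomal RNA the result depended on the libraries of replicate 3. DCP2 was at 215, 224, 119 and 203 CPM after control siRNA and at 132, 114, 230 and 107 CPM after CNOT1 siRNA. In each group the third library lay near the level of the other group. With all libraries 0 of 10 mRNAs and 0 of all genes were called by edgeR, 0 by DESeq2, and 0 of the 10 had an unadjusted p below 0.05, where 2.58% and 4.11% of all genes did as higher and lower. Without both libraries 4 of 10 were called higher and 1 lower (17.1% and 14.6% of all genes). DCP2 was lower (-0.86 ± 0.12, adjusted p = 9.94e-06), and EIF4ENIF1 (0.51 ± 0.14, adjusted p = 0.00645), DCP1B (0.48 ± 0.12, adjusted p = 0.00321), DCP1A (0.42 ± 0.09, adjusted p = 0.000661) and LSM14B (0.40 ± 0.10, adjusted p = 0.00371) were higher. Without the third control library alone, DCP1A (0.36, adjusted p = 0.0102), DCP2 (-0.55, adjusted p = 0.031), XRN1 (0.38, adjusted p = 0.0353) and EIF4ENIF1 (0.43, adjusted p = 0.0337) were called, and without the third CNOT1 siRNA library alone DCP2 was (-0.69, adjusted p = 0.0269). The upper end of the adjusted p over 15 alternatives was 1 for each of these genes.

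**Figure D5:**
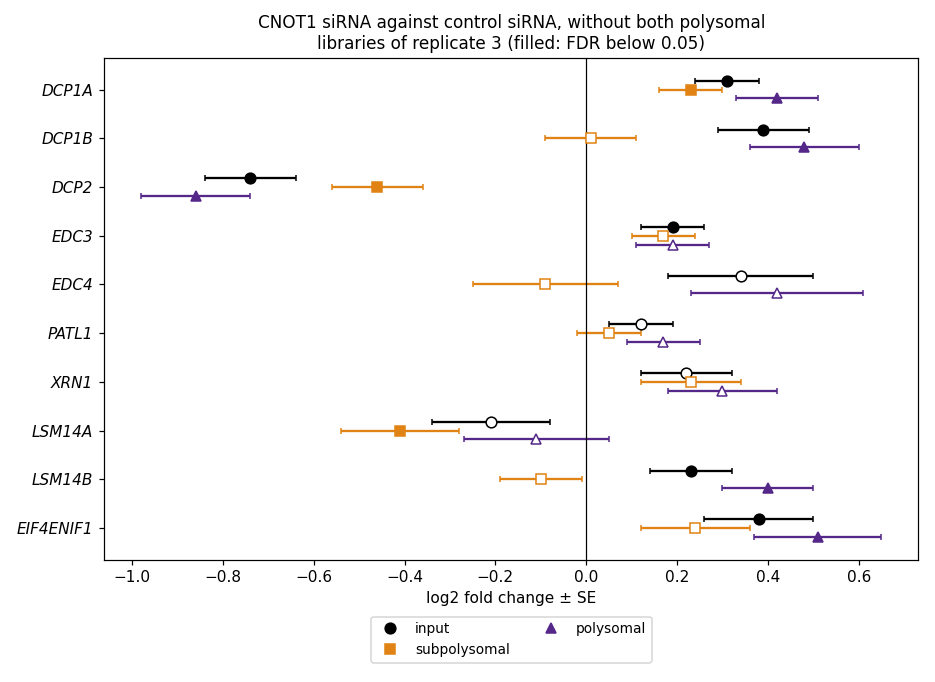
Log2 fold change after CNOT1 siRNA in input, subpolysomal and polysomal RNA, with the SE, without both polysomal libraries of replicate 3. Filled symbols passed an FDR of 0.05. DCP2 lies between -0.86 and -0.46 in all 3 kinds of RNA, and DCP1A between 0.23 and 0.42.

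The change in polysome association, taken as the CNOT1 siRNA effect in polysomal minus that in subpolysomal RNA, was called for 0 of the 10 by edgeR with all libraries, 0 by DESeq2 and 0 at an unadjusted p below 0.05, where 3.26% and 2.4% of all genes were called higher and lower. Without both polysomal libraries of replicate 3, LSM14B (0.51 ± 0.13, adjusted p = 0.00987) and DCP1B (0.47 ± 0.16, adjusted p = 0.0396) were called higher, 2 of 10 against 9.99% of all genes, and 0 of 10 lower against 7.51%.

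After TNRC6A/B siRNA, 0 of the 10 mRNAs and 0% of 14064 genes were called by edgeR, DESeq2 called 0 of the 10, and 0 of the 10 had an unadjusted p below 0.05. None of the 10 separated the groups of 2 libraries each, as 10.2% of all genes did as higher and 14.4% as lower. PATL1 was at 151 and 128 CPM after control siRNA and at 181 and 151 CPM after TNRC6A/B siRNA, and LSM14B at 49.3 and 35.7 against 58.4 and 44.9 CPM. The control libraries themselves differed widely in several mRNAs, EDC4 at 108 and 40.4 CPM and DCP2 at 105 and 197 CPM, and the siRNA libraries of the same numbers differed the same way, at 110 and 56.1 and at 140 and 183 CPM. The SE of the log2 fold change was 0.58 for EDC4 and 0.36 for DCP2, and 0.17 and 0.16 with the replicate block, under which neither was called (adjusted p = 0.52 and 0.708). DCP1A was at 92.2 and 110 against 104 and 105 CPM, DCP1B at 18.3 and 12.7 against 16.3 and 11.5, EDC3 at 169 and 105 against 164 and 124, XRN1 at 61.6 and 95.9 against 82.7 and 103, LSM14A at 139 and 174 against 148 and 175, and EIF4ENIF1 at 48.9 and 38.6 against 38.6 and 36.1 CPM.

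Other genes of the pathway were followed as fixed lists. Of 16 further genes of decapping and 5′-to-3′ decay, 9 were called higher and 1 lower in the DDX6 IP than in total RNA. Of all genes, 22.7% and 23.3% were called higher and lower. The median log2 fold change of the 16 was 0.59. DDX6 itself led them. Its message was at 166, 177 and 173 CPM in total RNA and at 615, 404 and 522 CPM in the DDX6 IP, 1.58 on the log2 scale (adjusted p = 1.54e-05). LSM6, a subunit of the LSM1-7 ring, rose by 1.3 (adjusted p = 0.000877), and the nuclear exonuclease gene XRN2 changed by -0.48 (adjusted p = 0.00737). Of 25 genes for other P-body and repression proteins, 6 were called higher and 3 lower. The share of them called higher was thus close to the 22.7% of all genes, and the share called lower was below 23.3%. ATXN2 (1.5, adjusted p = 7.65e-05) and its paralogue ATXN2L (1.38, adjusted p = 0.000106), whose proteins bind DDX6, led those called higher. The Argonaute genes AGO2 (-0.63, adjusted p = 0.038) and AGO3 (-0.61, adjusted p = 0.00442) led those called lower. The decay list stood at 10 higher and 2 lower in the eIF4A1 IP (all genes, 26.1% and 26.5%) and at 5 and 2 in the eIF4A2 IP (24.5% and 25.8%). In these IPs, in the same order, the other list stood at 3 and 6 and at 6 and 5.

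After CNOT1 siRNA in input RNA, 2 of the 16 decay genes were called higher and 3 lower, beside 13.4% and 15.6% of all genes, and 2 and 5 without both polysomal libraries of replicate 3 (19.6% and 21.1%). PNRC2, which links decapping to nonsense-mediated decay, rose by 0.63 (adjusted p = 0.00906) and PNRC1 by 0.43 (adjusted p = 0.0327), while NUDT3, a further cap-cleaving Nudix enzyme (-1.01, adjusted p = 0.00673), and LSM4 (-0.78, adjusted p = 0.0178) were lower. Of the other 25, 4 were higher and 5 lower, or 10 and 6 without both libraries, among them TNRC6A (0.69, adjusted p = 0.00978), PUM2 (0.41, adjusted p = 0.031) and the helicase gene MOV10 (-0.65, adjusted p = 0.0146), with CNOT1 as the targeted gene (-4.08, adjusted p = 0.00673). DDX6 was at a mean of 250 and 211 CPM in control and CNOT1 siRNA input, and its change of -0.25 did not pass the test (adjusted p = 0.181). In subpolysomal RNA, where 13% and 19.1% of all genes were called higher and lower, the decay list counted 2 higher and 3 lower (4 and 4 without both libraries, beside 17.7% and 24.3%), with LSM2 (0.69, adjusted p = 0.00028) and NUDT3 (-0.96, adjusted p = 0.00255) at its ends, and the other list 7 higher and 4 lower (8 and 6 without both), with AGO2 (0.95, adjusted p = 2.69e-05) and MOV10 (-0.94, adjusted p = 0.000651). In polysomal RNA 0 genes of either list were called by edgeR with all libraries, and 1 of the 16 and 0 of the 25 had an unadjusted p below 0.05. Without both libraries 3 of the 16 were called higher and 5 lower, and 10 and 6 of the 25 (all genes, 17.1% and 14.6%). After TNRC6A/B siRNA 0 of the 15 and 0 of the 24 listed genes that were tested were called, and 0 and 5 had an unadjusted p below 0.05, among them the targeted TNRC6A and TNRC6B.

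Across the 12 group means of log2 CPM, centred within each experiment, the 10 mRNAs did not share a single pattern. The 45 pairwise Pearson correlations ran from -0.75 for LSM14A with EDC4 to 0.90 for XRN1 with EDC4, with a median of 0.14. Among 9687 genes the profiles most like DCP1A were BAG4 (0.970) and CCHCR1 (0.932), and BAG4 (0.933) and ATXN2 (0.926) were most like PATL1. CCHCR1 was also nearest to DCP1B (0.921). DCP2 lay closest to EVC (0.965) and LARP1 (0.959), EDC4 to MAP1B (0.984) and XRN1 to NBEAL1 (0.991). EIF4ENIF1 had no close neighbour, HELQ being the nearest at 0.780. These values are descriptions over 12 groups that share libraries and fits within an experiment.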

How the data were processed

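The authors aligned strand-specific RNA-Seq reads of HEK293 libraries to hg19 with TopHat2 and deposited unnormalised htseq-count counts, 1 integer per gene symbol and library. A deposited table with the authors' own comparisons of each IP with total RNA (fold changes and p-values) was not used. The 10 genes, the lists and the tests were chosen with earlier results of these data known. Counts were fitted with edgeR 4.0.16 (R 4.3.3, limma 3.58.1), 1 fit per experiment over 12, 24 or 4 libraries, after filterByExpr, with TMM factors and two-sided quasi-likelihood F-tests on group means. The adjusted p are Benjamini-Hochberg FDRs over every gene tested, and 0.05 was the threshold for a call. CPM use TMM-adjusted library totals. Labels do not say that replicates are separate cultures, so p-values measure the spread between these samples, which may be technical. The third total RNA library of the RIP experiment is titled replicate 3 but described as replicate 2, and the title was used. No pair of replicate libraries was identical (0 of 50).

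Library totals were 26.9 to 46 M counts in the RIP experiment, 15.9 to 40.7 M in the gradient experiment and 15.4 to 28.8 M in the TNRC6 experiment. Reads carry no molecular identifiers, so depth covers counting error only. The count model was tested on simulated data. The results were recomputed with DESeq2 1.42.0, with RLE factors, without the count filter, with the replicate number as a block, with the compared libraries alone, without each library in turn, and with the pair of polysomal replicate 3 libraries left out. The block combined with the last, and the list counts without that pair, were added after seeing the data. Same-numbered samples deviated together in all pairs of the 6 RIP comparisons (r = 0.17 to 0.88) and of CNOT1 siRNA in input (0.13 to 0.59) and subpolysomal RNA (0.75 to 0.87). The pairing there comes from the labels' replicate numbers and this check. Where polysomal libraries entered, the check did not show pairing, but it included those of replicate 3 and was not repeated without them.

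Named genes are the 10 genes in every comparison, the targeted genes, and from each list up to 2 called genes with the largest increase and 2 with the largest decrease at a mean of at least 10 CPM, of which the text gives the leading ones. Likeness is the Pearson correlation over 12 group means, with a pseudocount of 0.5 CPM. Positions, exons and UTRs came from GENCODE release 44 on GRCh37, whose coordinates are those of hg19, 1-based, with 1 transcript per gene.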

Additional observations from a re-analysis of the deposited data

Results flagged for a closer look

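In groups of 4 libraries, 60 combinations of gene and group were examined for a library far from the other 3, and 3 stood out, where chance marks about 1 in 20. DCP1A was at 125 CPM in the library labelled control siRNA, polysomal, replicate 3, where the other 3 lay between 73.9 and 82.1 CPM. XRN1 was at 92.9 CPM in the same library, where the others lay between 42.8 and 49.4 CPM. That library is the one whose CNOT1 level (28.3 CPM) went against its label, and its part in these values was not tested. PATL1 was at 166 CPM in the second CNOT1 siRNA polysomal library, where the others lay between 146 and 149 CPM.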

How the results depend on the processing

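Counts of the 10 mRNAs called depended most on the direct IP comparisons and on CNOT1 siRNA. For the DDX6 IP against the eIF4A1 IP, 3 became 5 with DESeq2, 6 with the replicate block and 0 with the compared libraries alone, and 0 to 3 without single libraries. For the eIF4A2 IP against the eIF4A1 IP, 1 became 0 with the compared libraries alone and 0 to 1 without single libraries. For CNOT1 siRNA in input, 2 became 5 with DESeq2, 4 with RLE factors, 1 with no filter on low counts, 10 with the compared libraries alone, 6 without both polysomal libraries of replicate 3, 6 with the replicate block as well, and 1 without any single library. In subpolysomal RNA 1 became 3 and 5 under the last pair of settings, and 0 to 2 without single libraries. In polysomal RNA 0 became 5 and 6, and 0 to 4. For the change in polysome association 0 became 2 and 3, and 0 without any single library. The third gene there was DCP2, at -0.41 (adjusted p = 0.0145) against 0.08 with all libraries and no block. The other comparisons stayed within 1.5 times their counts, 8 to 9 for the DDX6 IP, 4 to 6 for the eIF4A1 IP and 4 to 5 for the eIF4A2 IP against total RNA without single libraries, 5 to 6 for the DDX6 IP against the eIF4A2 IP, 6 to 7 for both polysome comparisons and 0 for TNRC6A/B siRNA. Over 1720 recomputed fold changes 1590 kept their side of the threshold and, where called, their direction, 61 lost the call, 68 gained it and 1 changed sign, and 62 uncalled values changed sign. The cause was not tested.

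With all libraries, the replicate block changed no call beyond those given in the report. With both polysomal libraries of replicate 3 left out, it also added XRN1 in polysomal RNA (0.3, adjusted p = 0.0432) and EDC3 (0.16, adjusted p = 0.0431) and EIF4ENIF1 (0.23, adjusted p = 0.0214) in subpolysomal RNA. With polysomal libraries same-numbered samples did not deviate together (r from -0.63). The check included both polysomal libraries of replicate 3 and was not repeated without them, so it cannot decide whether the remaining samples are paired. In these comparisons, with all libraries, the block left the counts of the 10 mRNAs called as they were. Without both libraries it moved 8 to 9 for the control polysome comparison, 5 to 6 for CNOT1 siRNA in polysomal RNA and 2 to 3 for polysome association. In the TNRC6 experiment, with 2 pairs (r = 0.93), it called 5.43% of all genes and 0 of the 10.

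Limits are the 2 to 4 libraries per group, the polysomal libraries of replicate 3, the IPs analysed without control antibody libraries, shares of RNA in place of amounts, and the unknown strand option of the counting, which bears on EDC3, EDC4 and EIF4ENIF1 through overlapping genes. DCP1B had the fewest counts of the 10.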

Other observations

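EIF4A2 message was at 377, 375 and 421 CPM in total RNA and at 851, 852 and 1133 CPM in the eIF4A2 IP. It was thus, like DDX6 message in the DDX6 IP, higher in every library of the IP against its own protein. Both messages were also above total RNA in the other IPs, though by less. EIF4A2 was at 434 to 469 CPM in the eIF4A1 IP and at 474 to 488 CPM in the DDX6 IP. DDX6 was at 249 to 296 and 207 to 219 CPM in the eIF4A1 and eIF4A2 IPs, against 166 to 177 CPM in total RNA. EIF4A1 message was at 7.84 to 9.26 CPM in total RNA and at 1.31 to 2.19 CPM in the eIF4A1 IP. Overlaps of EIF4A1 with other genes or copies were not examined, and how the authors' counting treated shared reads is not given. The level of EIF4A1 is therefore uncertain.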
